A study of Homo sapiens with 2 samples.

Results

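The genes described here are 10 genes of the Notch pathway, read for NeuroD1 binding in IMR-32 cells. They are the ligands DLL1, DLL3 and DLL4, the fringe genes LFNG and MFNG, the receptor NOTCH1, and the repressor genes HES1, HES5, HES6 and HEY1. They are named by symbol, and the rule that takes their peaks uses no peak value, although the genes were chosen with earlier results of these data known. Every peak that overlapped the RefSeq body of such a gene, or lay up to 20 kb from either end, was counted, which gave 16 of the 6183 peaks in the list. The 10 genes are among 19974 protein-coding genes on the chromosomes of the list.

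IMR-32 is a neuroblastoma cell line with amplified MYCN, and the cells were labelled WT with no treatment named. In ChIP-seq, DNA held by a protein is recovered with an antibody and sequenced, and peaks are places where reads exceed the local background. There was 1 NeuroD1 ChIP library and 1 input library, and the values below come from the peaks called in the former. Per the labels the antibody was against NeuroD1, but the supplementary protocol for ChIP-seq describes an antibody to H3K27Ac, a mark of active chromatin. The paper also lists a NeuroD1 antibody and reports that sequence motifs of NeuroD1 were enriched at its NeuroD1 sites in IMR-32. It profiled H3K27Ac in a separate assay. Peaks are called NeuroD1 peaks here, as in the labels and the paper. With 1 library and no replicate, no test between conditions exists. All intervals below are exact 95% intervals that cover counting error only. The values describe binding in this line and say nothing of expression.

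The total depth of the library is unknown. Fold enrichment is the ChIP pileup at the summit plus 1, divided by the local background plus 1. Its intervals cover the counting error of the ChIP reads alone. The local background is held at its solved value, so these intervals leave out its error. Across all peaks its median was 6.79 and its range ran from 1.58 to 70.03. The reads at each summit were solved from the deposited fold enrichment and −log10 p-value, and had a median of 17 with a range from 8 to 272. The local background had a median of 1.31 reads, and 32.8% of peaks stood at its lowest value of 1.04. Within 0.5 Mb of MYCN, the amplified gene of this line, the median background of 24 peaks was 45.9, and none of the 10 genes lies there.

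Notch signalling passes between touching cells. A ligand on a cell binds a Notch receptor on its neighbour, the receptor is cut, and its intracellular part joins RBPJ in the nucleus and turns on genes such as HES1, HES5 and HEY1. These repressors hold down proneural genes in the receiving cell. Proneural bHLH factors, the family to which NeuroD1 belongs, are known in nerve precursors to turn on Notch ligands, and so keep neighbouring cells from differentiating at the same time. Fringe proteins add sugars to Notch and set which ligands it answers to. HES6 is the odd member of its family, since it counters HES1 and favours neuronal differentiation. NeuroD1 and its relatives bind E-boxes, written CANNTG, as dimers with E-proteins.

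The promoters of the 3 HES genes are shown first, because they span the range of the results: a peak over the promoter in HES6, a peak just upstream of it in HES1, and no peak in HES5. Each is the 250 bases before the annotated start, 5′ to 3′ on the strand of the gene, from RefSeq on GRCh38.p14. Capitals mark the E-box CANNTG and the letters TGGGAA, the core of RBPJ sites, which reads TTCCCA on the opposite strand. The HES6 stretch is chr2:238240039-238240288 on the minus strand, the HES1 stretch is chr3:194135898-194136147 on the plus strand, and the HES5 stretch is chr1:2530264-2530513 on the minus strand.
HES6: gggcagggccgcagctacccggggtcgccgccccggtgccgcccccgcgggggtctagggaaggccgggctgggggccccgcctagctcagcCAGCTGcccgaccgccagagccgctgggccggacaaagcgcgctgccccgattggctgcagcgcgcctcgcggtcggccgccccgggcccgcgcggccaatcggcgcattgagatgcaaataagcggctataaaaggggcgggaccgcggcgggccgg
HES1: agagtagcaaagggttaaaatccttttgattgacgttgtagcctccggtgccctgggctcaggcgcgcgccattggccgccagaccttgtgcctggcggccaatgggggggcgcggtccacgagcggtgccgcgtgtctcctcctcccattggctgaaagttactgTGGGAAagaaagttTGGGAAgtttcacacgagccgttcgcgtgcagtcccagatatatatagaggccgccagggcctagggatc
HES5: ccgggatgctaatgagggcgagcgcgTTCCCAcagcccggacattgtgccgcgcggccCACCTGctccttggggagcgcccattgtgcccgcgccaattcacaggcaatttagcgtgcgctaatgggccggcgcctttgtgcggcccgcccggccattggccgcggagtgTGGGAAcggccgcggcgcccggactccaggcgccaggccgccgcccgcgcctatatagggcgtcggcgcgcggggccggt

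The HES6 stretch held 1 E-box, CAGCTG, whose first base lay 158 bases before the start, and no TGGGAA. All 250 of its bases lay within the HES6 peak, and the E-box lay 101.5 bases from the summit. The HES1 stretch held no E-box and 2 copies of TGGGAA, at 84 and 70 bases before the start. The HES5 stretch held 1 E-box, CACCTG, at 192 bases, and 2 copies of TGGGAA, at 224 and 80 bases. The base composition differed, with 77.2% G and C in HES6, 59.2% in HES1 and 72.8% in HES5. The promoter with a peak was the richest in G and C of these 3. The same stretch held 76% in NOTCH1, 70% in DLL4, and 62.8% and 57.2% at the LFNG starts, all without a peak over them. Whether base composition goes with a peak was not tested.

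Promoter entries were at hand for DLL4, HES1, HES5, HES6, LFNG and NOTCH1, with 2 starts for LFNG, and not for DLL1, DLL3, MFNG and HEY1. Both strands were searched for CANNTG, for its forms CAGATG and CAGCTG, for TGGGAA, and for CACNAG, the N-box of HES factors. Of these 7 entries, 4 held CANNTG, 1 held CAGATG, 1 held CAGCTG, 3 held TGGGAA and 2 held CACNAG. Among all 34961 promoter entries the shares were 61.8% for CANNTG, 12.1% for CAGATG, 14.0% for CAGCTG, 20.8% for TGGGAA and 32.02% for CACNAG. The 2921 entries that a peak overlapped held CANNTG in 49.6%, CAGATG in 7.36% and CAGCTG in 14.4%. Their median G and C content was 68.0%, against 56.8% for the other 32040 entries. The part of base composition in these shares was not tested. The search took only the bases before each start, and a peak may overlap few of them. The shares therefore do not show how often an E-box lies under a peak. The enrichment of NeuroD1 motifs that the paper reports at its sites was not tested here. A match in these letters is a description and not a binding site.

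Of the 10 genes, 8 had a NeuroD1 peak in the body or within 20 kb, a share of 80% (interval 44.4 to 97.5%). The same window held a peak for 29.8% of all protein-coding genes. Long genes have long windows, so the share was also taken over the 13006 genes with bodies between those of HES5 (1.519 kb) and NOTCH1 (51.616 kb), where it was 28.5%. With 5 kb flanks 7 of the 10 genes had a peak beside a background of 22.5%, while gene bodies alone gave 3 of 10 beside 16.1%, so most of these peaks lay outside the genes. Genes are not replicates, and the 10 genes were not drawn at random, so the shares are given side by side without a test. The 16 peaks lay in 0.523 Mb of window, which is 30.6 peaks per Mb. The windows of all protein-coding genes held 3.12 per Mb, and those of the genes in the same length range held 5.54 per Mb.

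Among the ligands and fringes, 4 of 5 genes had a peak (interval 28.4 to 99.5%), with 10 peaks in all. Among HES1, HES5, HES6 and HEY1, 3 of 4 had a peak (interval 19.4 to 99.4%), with 5 peaks. Each class thus had a gene without a peak, DLL1 and HES5. The intervals cover most of the scale and overlap almost wholly. With 5 and 4 chosen genes, these shares cannot show whether the classes differ. Ligand and fringe windows held 38.2 peaks per Mb and HES and HEY windows 29.5.

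**Figure D1:**
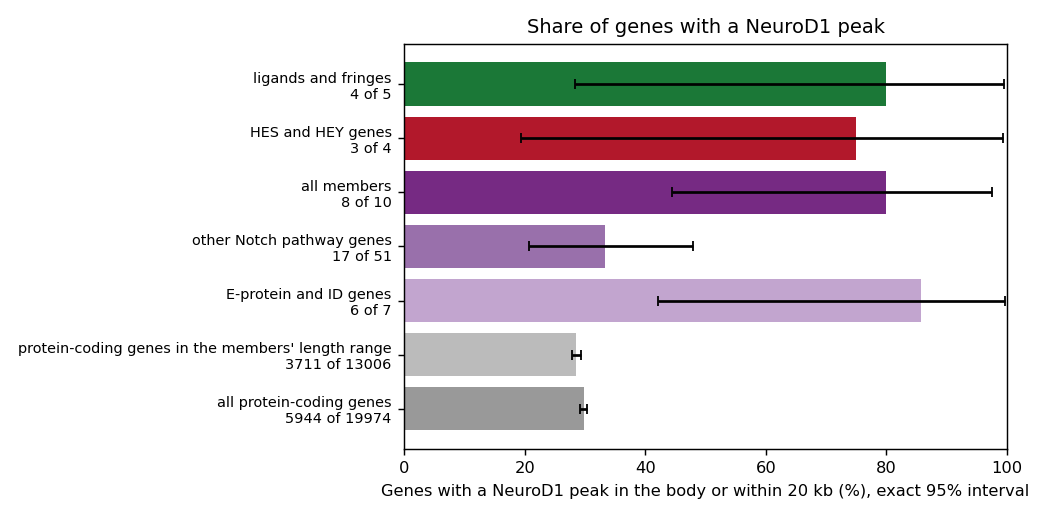
Share of genes (%, x axis) with a NeuroD1 peak in the body or within 20 kb, for the classes of Notch genes, 2 comparison lists and the background, with exact 95% binomial intervals as lines. The 10 genes stand at 80%, the 51 other Notch pathway genes at 33.3% and all protein-coding genes at 29.8%.

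Where a peak counted only for the gene whose body was nearest to it, the classes had equal numbers of peaks. Of the 16 peaks, 10 had the Notch gene as nearest and 6 had another gene. The ligands and fringes kept 5 of their 10 peaks and the HES and HEY genes kept all 5 of theirs, which is 19.1 and 29.5 peaks per Mb of window, so the order of the densities turned. By this rule 7 of the 10 genes had a peak, or 70%, where 17.0% of protein-coding genes were the nearest gene of a peak. NOTCH1 was the gene that had a peak in its window but was nearest to none.

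DLL3 encodes a divergent ligand that stays largely inside the cell and damps Notch in the cell that makes it. Its body lies at chr19:39498947-39508469 and 4 peaks fell in its window. The peak at chr19:39497846-39498141 lay 806 bases below the body and had 24 reads (interval 15.4 to 35.7) over a background of 2 reads. Its fold enrichment was 8.17 (5.36 to 12) and its −log10 q was 13.1. It was the only DLL3 peak with DLL3 as nearest gene.

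The other 3 DLL3 peaks lay at the starts of neighbouring genes. The peak at chr19:39480632-39480839 covered the start of TIMM50, a gene of mitochondrial protein import, with 13 reads and a fold enrichment of 6.75 (3.82 to 11.2). The peak at chr19:39483147-39483376 had the same reads and fold, and covered the start of the lncRNA gene LOC124904718 inside the body of TIMM50. The peak at chr19:39515123-39515473 covered the start of the selenoprotein gene SELENOV, with 15 reads and a fold enrichment of 7.71 (4.53 to 12.4). Of all protein-coding genes on chromosome 19, 40.5% had a peak in their window, the highest share among the chromosomes of the 10 genes.

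DLL4, a ligand best known from blood vessels, lies at chr15:40929340-40939073 on the plus strand. Its peak at chr15:40927553-40927775 had its summit 1681 bases upstream of the start, with 18 reads (10.7 to 28.4). The fold enrichment of 4.66 (2.86 to 7.22) was the lowest of the 16, and only 7.50% of all peaks were lower. Its −log10 q was 4.80. The local background there was 3 reads, the highest of the 16. The reads were close to the median of the list, while the fold was well under its median of 6.79.

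The other peak in the DLL4 window, chr15:40953224-40953522, lay 14151 bases past the end of DLL4 and covered the start of CHAC1. CHAC1 is a glutathione-degrading enzyme that is also known to block the maturation of Notch1 and so to favour neurogenesis, although it was not among the 10 genes. The peak had 11 reads (5.49 to 19.7), the fewest of the 16, and a fold enrichment of 5.70 (3.09 to 9.82) and a −log10 q of 4.16. With a −log10 q of at least 5 DLL4 had no peak, and the ligands and fringes with a peak fell to 3 of 5. The CHAC1 promoter is shown because 247 of its 250 bases lay in that peak. It is chr15:40953221-40953470 on the plus strand, from RefSeq on GRCh38.p14, with the E-box CAGCTG in capitals at 67 bases before the start.
CHAC1: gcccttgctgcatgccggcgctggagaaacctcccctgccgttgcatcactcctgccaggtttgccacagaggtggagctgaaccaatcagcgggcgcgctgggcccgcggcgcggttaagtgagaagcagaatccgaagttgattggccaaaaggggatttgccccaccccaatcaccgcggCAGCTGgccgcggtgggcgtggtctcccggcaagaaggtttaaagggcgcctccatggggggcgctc

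HES6 and CHAC1, the promoters printed here that lay in a peak, held the same E-box form, CAGCTG. Other promoters in these peaks differed. The TIMM50 entry, with 206 of 250 bases in its peak, held CAGATG at 193 bases before the start, and the SELENOV entry that lay wholly in a peak held no E-box. CAGCTG stood in 14.4% of all entries that a peak overlapped and in 14.0% of all entries. Entries that a peak overlapped thus held it about as often as all entries did.

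DLL1, the main ligand of nerve precursors, lies at chr6:170282206-170291078 and had no peak in its window. The closest peak lay 263 kb away. It sat in a stretch of 0.852 Mb without a peak, from 169702156 to 170554146 on chromosome 6, that held 7 protein-coding genes. Of 6160 stretches between neighbouring peaks, it ranked 569 by the number of protein-coding genes it held. Within 1 Mb of DLL1 on either side, 2 peaks were called in all. Of 12 protein-coding genes there, 5 had a peak in their window, or 41.7%, against 29.4% across chromosome 6. At the lowest background no peak with fewer than 8 reads was called, so binding that gave fewer reads at a summit was not detectable in this list.

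Of the fringe genes, MFNG lies at chr22:37469063-37486384 and had 1 peak, at chr22:37483976-37484139, within the body. It had 18 reads (10.7 to 28.4) over the lowest background, with a fold enrichment of 9.16 (5.63 to 14.2) and a −log10 q of 11.8. By fold it was the highest peak of the ligands and fringes, and 78.5% of all peaks were lower, while the near DLL3 peak had more reads and a higher −log10 q. MFNG and the near DLL4 peak both had 18 reads, with folds of 9.16 and 4.66 over backgrounds of 1.04 and 3.

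LFNG lies at chr7:2512529-2529177 on the plus strand and had 3 peaks. The peak at chr7:2513647-2514013, in the body, had its summit 1340 bases past the first start, with 20 reads (12.2 to 30.9) and a fold enrichment of 6.87 (4.32 to 10.4). The peak at chr7:2518289-2518434 lay 486 bases past the second start, with 16 reads and a fold enrichment of 5.56 (3.32 to 8.82). The peak at chr7:2496034-2496236 lay 16293 bases upstream, with 16 reads and a fold enrichment of 7.07 (4.23 to 11.2). Its nearest gene was the lncRNA gene LOC107986759, at 9621 bases. The intervals of the 3 peaks overlapped. LFNG stood in a region dense in peaks, with 23 peaks within 1 Mb and a peak for 15 of 20 protein-coding genes there, or 75%.

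HES6 had the highest peaks of the 10 genes. Its body lies at chr2:238238267-238240038 on the minus strand. The peak at chr2:238239921-238240288 ran from 250 bases before the start to 117 past it, with its summit 54 bases before the start. It had 28 reads (18.6 to 40.5) over the lowest background, a fold enrichment of 14.0 (9.45 to 19.98) and a −log10 q of 24.7. It ranked 288 of 6183 by fold, and 95.1% of all peaks were lower.

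The other HES6 peak, chr2:238240781-238241099, lay 743 bases upstream of the start, with 24 reads (15.4 to 35.7) and a fold enrichment of 12.05 (7.90 to 17.7). The HES6 peaks were 492 bases apart and their summits 834 bases, the closest pair in any of the windows. HES6 was also the only one of the 6 genes with a promoter entry whose entry was overlapped by a peak, where 13.7% of 15812 protein-coding genes with an entry were. DLL1, DLL3, MFNG and HEY1 had no entry and could not be counted here. Peaks lay 44 bases from the HEY1 body and 806 bases from the DLL3 body. Of the 14 peaks at the other genes, 2 had intervals for the fold that ended below that of the 14.0-fold HES6 peak, the near DLL4 peak and the LFNG peak at its second start. The other 12 intervals overlapped with it. The backgrounds at the 2 peaks, 3 reads at DLL4 and 2 at LFNG, were held fixed, so this separation leaves out their error. HES6 was highest in order, but overlap of intervals does not show that folds are alike, and no test between peaks was run. Within 1 Mb of HES6, 5 of 19 protein-coding genes had a peak, or 26.3%.

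HES1, the classic target of activated Notch, lies at chr3:194136148-194138732 on the plus strand and had a peak on each side. The peak at chr3:194134876-194135244 ended 904 bases before the start, with 16 reads (9.15 to 26.0) and a fold enrichment of 7.85 (4.69 to 12.5). The peak at chr3:194141524-194141714 lay 2792 bases past the end of the gene, with 14 reads (7.65 to 23.5) and a fold enrichment of 7.23 (4.18 to 11.8). Neither reached the 250 bases printed above. Their folds were indistinguishable by counting error and near the median of all peaks.

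HEY1, a repressor that acts with HES1 in many Notch responses, had 1 peak, 44 bases from the upper end of its body. The peak had 15 reads (8.40 to 24.7) over the lowest background and a fold enrichment of 7.71 (4.53 to 12.4). Its values were the same as those of the SELENOV peak in the DLL3 window, since both had 15 reads over the same background.

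HES5, with HES1 the main Notch effector in nerve precursors, lies at chr1:2528745-2530263 on the minus strand and had no peak. Its closest peak lay 1153 kb away. The analysed list held no peak from 1375386 to 5465233 on chromosome 1, a stretch of 4.09 Mb with 52 protein-coding genes. Of 6160 stretches between neighbouring peaks on a chromosome, it ranked 16 by the number of protein-coding genes it held. All 34 protein-coding genes within 1 Mb of HES5 lacked a peak, so HES5 shared the lack of a peak with all of its neighbours at that distance. Across chromosome 1 the share with a peak was 28.0%.

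NOTCH1 lies at chr9:136494433-136546048 on the minus strand and had 1 peak in its window, chr9:136483480-136483625, which was 10808 bases past the end of the gene. The peak had 14 reads and a fold enrichment of 7.13 (4.12 to 11.6). It covered the start of the lncRNA gene C9orf163, with the summit 71 bases from that start, and lay in SEC16A, a gene of protein export from the endoplasmic reticulum. No peak lay within the body of NOTCH1.

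**Figure D2:**
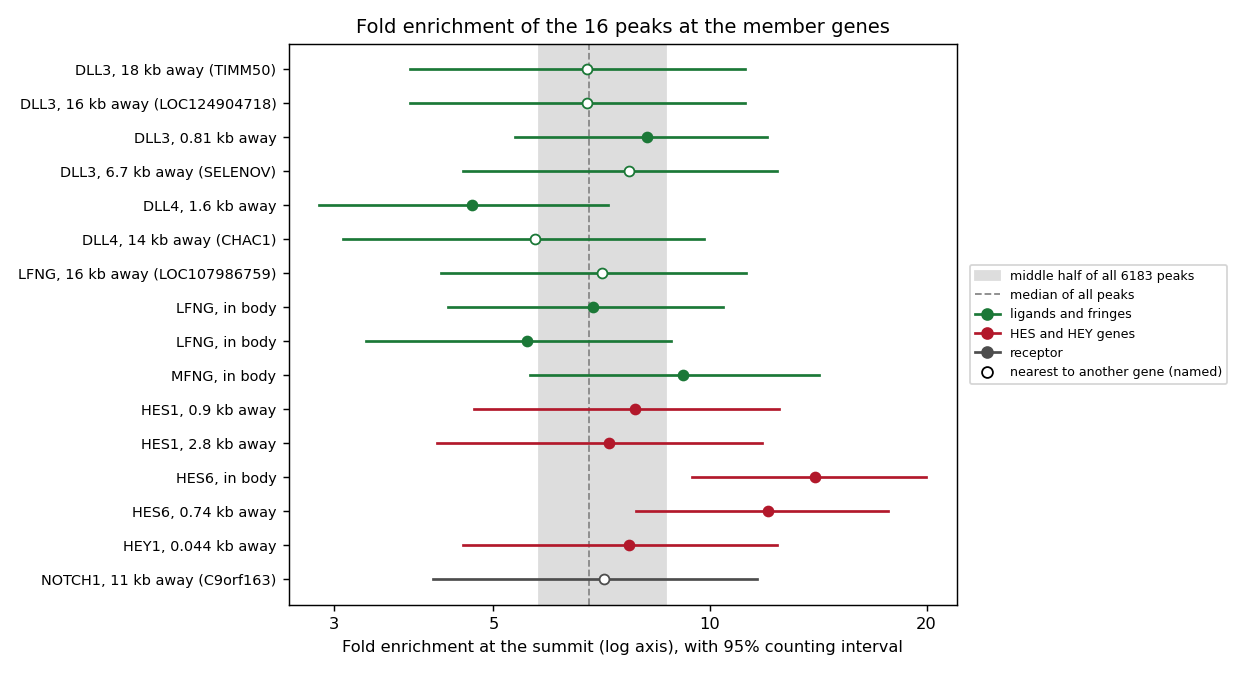
Fold enrichment at the summit (x axis, log scale) of the 16 peaks with exact 95% counting intervals, one line per peak, named by gene, distance from the gene body and, for open dots, the other gene that is nearest. The grey band spans the middle 50% of all 6183 peaks (5.79 to 8.68) and the dashed line is their median (6.79); only MFNG and both HES6 peaks lie above the band.

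By height, most peaks at the 10 genes lay near the middle of the list. Of the 16, 10 had folds between the quartiles of all peaks, 5.79 and 8.68. Above them stood 3, which were MFNG and both HES6 peaks, and 3 stood below, which were both DLL4 peaks and the LFNG peak at its second start. The median of the 16 was 7.18, against 6.79 for the list.

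The ligand and fringe peaks had a median fold enrichment of 6.81 (4.66 to 9.16, n = 10 peaks). The HES and HEY peaks had a median of 7.85 (7.23 to 14.0, n = 5 peaks), and without HES6 it was 7.71 (7.23 to 7.85, n = 3 peaks). With peaks nearest to the gene itself alone, the ligands and fringes had a median of 6.87 over 5 peaks. The 2 classes overlapped in range, and the median number of reads was 16 in each. The background of the classes differed as well, since 4 of the 5 HES and HEY peaks stood at the lowest background, and 3 of the 10 ligand and fringe peaks did. The part of background in the difference of fold was not tested. The 24 reads at the DLL3 peak and the 24 at the upstream HES6 peak gave folds of 8.17 and 12.05, over backgrounds of 2 and 1.04 reads.

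The rest of the Notch pathway was read from a list of 51 genes. Of these, 17 had a peak, or 33.3% (interval 20.8 to 47.9%), with 39 peaks in all. The background share was 29.8%, close to that of the wider list. Genes are not replicates, so these shares stand side by side without a test. By the nearest-gene rule 11 of the 51 had a peak, or 21.6%. The genes of this list are longer, with a median body of 37.2 kb against 9.20 kb for the 10 genes.

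The highest folds of the pathway were in the windows of genes that act in the nucleus. RBPJ, the DNA-binding partner of Notch, had 3 peaks in its body, the highest with 49 reads (36.3 to 64.8) and a fold enrichment of 24.1 (17.9 to 31.7), which ranked 48 of 6183. MAML3, a coactivator of the Notch complex, had 6 peaks with a highest fold of 19.9 (14.5 to 26.6). EP300, the acetyltransferase of the active complex, had 2 peaks with a highest fold of 8.68 and was the nearest gene of neither. Its relative CREBBP had a highest fold of 5.79, at 7403 bases from its body and nearest to TRAP1. In this class 4 of 10 genes had a peak, where 29.8% of all protein-coding genes did. The lower bound for RBPJ, 17.9, lay above the point values of all 16 peaks at the 10 genes. RBPJ and MAML3 have bodies of 329683 and 437432 bp, so their windows are many times longer than those of the 10 genes.

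All 4 TLE genes, which encode the corepressors that HES proteins bring to DNA, had a peak, where 29.8% of all protein-coding genes did. Their windows ran from 90.0 to 194.9 kb, longer than most windows of the 10 genes. By the nearest-gene rule 3 of the 4 had a peak, where 17.0% of protein-coding genes did. The TLE1 peak was nearest to another gene. TLE3 had 5 peaks with a highest fold of 19.3 (14.7 to 24.8). The highest peak in the TLE2 window, at 20.4 (14.9 to 27.2), lay 13342 bases from its body and was nearest to TLE6. TLE4 and TLE1 had 1 peak each, at 5.31 and 4.58. The TLE genes therefore ran from near the top of the list to its lower end.

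Of 11 genes for ligand ubiquitination and trafficking, 3 had a peak, where 29.8% of all protein-coding genes did. NUMBL, an inhibitor of Notch, had a peak of 16.9 (11.8 to 23.4) that lay 495 bases from its body and was nearest to COQ8B. Its relative NUMB had a peak in its body at 8.68. Of 9 genes for proteases 4 had a peak, beside the same 29.8%. Among them were PSENEN at 11.8 and NCSTN at 10.9, both subunits of the γ-secretase that cuts Notch. The nearest genes of these peaks were PROSER3 and NHLH1, the last a neurogenic bHLH gene. RFNG, the third fringe gene, had a highest peak of 8.83 that was 13910 bases away and nearest to DUS1L. The other 2 proteases with a peak were ADAM17 at 7.15 and APH1B at 5.89, and each was the nearest gene of its peak. DTX3, a ubiquitin ligase of the trafficking class, had a peak at 5.89, which lay 2707 bases from its body and was nearest to another gene.

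In 2 classes no gene had a peak. They were the 4 other ligands and the 7 other genes of the repressor and feedback class, among them HES2, HES4, HES7, HEY2 and NRARP. Over the HES and HEY genes of both lists, 3 of 10 had a peak, or 30%, which were HES1, HES6 and HEY1. The share over all protein-coding genes was 29.8%. Many of the family are short, and the share was 15.1% for bodies up to 2 kb and 24.8% for bodies of 2 to 5 kb. HES2, HES3, HES4 and HES5, all without a peak, lie between 998964 and 6419919 on chromosome 1. The 4.09 Mb stretch without a peak lies there too, but it holds only HES5 of these genes. HES2, HES3 and HES4 lie outside it, so the stretch does not cover their lack of a peak. Of the other receptors, NOTCH3 had a peak in its body at 7.23 (4.18 to 11.8).

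The E-proteins, which pair with NeuroD1 on DNA, and the ID proteins, which block that pairing, were set beside the Notch genes as a like class of small size. Where 29.8% of all protein-coding genes had a peak, 6 of these 7 genes did (interval 42.1 to 99.6%), with 10 peaks. Their windows covered 1.12 Mb, mostly through the long TCF4 and TCF12 genes, and held 8.93 peaks per Mb. By the nearest-gene rule 4 of the 7 had a peak, or 57.1%, where 17.0% of protein-coding genes did. ID1 was the nearest gene of none. The ID2 peak overlapped the ID2 body but was counted for ID2-AS1, whose body it also met. TCF3 had the highest, at 13.4 (9.67 to 18.1) and 15085 bases from its body, followed by ID2 at 12.3 (8.28 to 17.7) at its own body. The intervals of both overlapped with that of the HES6 peak. ID1 stood at 8.68, TCF12 at 8.53, TCF4 at 7.71 and ID4 at 7.23, and ID3 had no peak.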

How the data were processed

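NeuroD1 ChIP-seq in IMR-32 was read from the peak list the authors deposited for 1 library. The input library was not analysed here. Per the labels, BWA 0.7.17, MACS2 2.2.7 and hg38 appear in the submitters' processing notes, while the deposited peak names carry macs3. Which control and which q threshold were applied is not given in the sources used here. The deposited fold enrichment is a ratio at the summit. The deposited −log10 p-values and −log10 q-values belong to the same summit. The deposited score is −log10 q scaled to a whole number. The last deposited column is fold divided by width in all 6183 peaks. The lowest −log10 q was 1.38.

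Reads and background were solved from the fold and −log10 p with the Poisson formula of MACS. The weight of 1 read, 0.9801, was inferred from the list, since it made 99.1% of peaks whole within 0.01 reads, against 18.3% at the next best weight. In a test on 1000 simulated peaks, 99.9% of reads were recovered. Exact Poisson and Clopper-Pearson intervals at 95% cover counting error only. Intervals for the fold were taken from those of the reads, with the background held fixed.

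Genes were taken from RefSeq on GRCh38.p14, and strand and promoters (250 bases before to 50 after a start) from its promoter entries. Positions count from 1. Where several gene bodies were equally near a peak, the nearest gene was the one with an end closest to the summit. The members and lists were chosen with earlier results of these data known. Named were the 10 genes, every gene that their peaks overlapped or had as nearest, the E-protein and ID genes with a peak, and the 10 other pathway genes with the highest fold. 1 gene of the fixed pathway list is not reported here and was left out of all counts of that list. TLE1, TLE4, NOTCH3, ADAM17, APH1B, DTX3, CREBBP, TRAP1, TLE6, COQ8B, PROSER3, NHLH1, DUS1L and the genes named without a peak fall outside this rule and were named after their values were seen. Alternatives were other windows, thresholds, assignments and motifs. The software was Python 3.11.15 with matplotlib 3.10.9, scipy 1.17.1, pandas 2.3.3 and numpy 2.4.6.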

Additional observations from a re-analysis of the deposited data

How the results depend on the processing

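With gene bodies alone and no flank, there were 4 peaks at 3 of the 10 genes, 2 of them ligand and fringe genes and 1 a HES or HEY gene, beside 10 other Notch pathway genes and 16.1% of protein-coding genes. With 5 kb flanks there were 10 peaks and a background share of 22.5%, and with 50 kb flanks the share was 40.02% and 26 other Notch pathway genes had a peak in place of 17. A −log10 q of at least 5 gave a share of 24.5% and a fold of at least 5 gave 27.6%. Over all RefSeq genes it was 17.8%, and in the length range of the 10 genes 28.5%. Of the 6 genes with a promoter entry, 3 had a peak within 1 kb of it, in place of 1 with a peak over it. Of 7 promoter entries, 1 held CAGATG and 1 held CAGCTG, where 4 held any E-box. With a −log10 q of at least 5, DLL4 lost its peaks, which left 7 of 10 genes with a peak. Ranks by −log10 q stayed within 1.5 times those by fold for all 16 peaks. No paired analysis was possible because no test was run on the lone ChIP library. The library has no replicate and an unknown depth, and a peak with fewer than 8 reads at its summit could not be seen.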
